A study of Mus musculus with 12 samples.

Results

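The genes that mark T and B lymphocytes were followed in whole mouse livers made fibrotic with carbon tetrachloride (CCl4), with and without knockdown of the liver-enriched noncoding RNA lnc-LFAR1. The 9 genes were Cd3g, Cd3e, Cd3d, Cd4, Cd8a, Ms4a1, Cd79a, Cd79b and Ptprc, taken by name from the 18193 genes with a probe set of their own on the array. Of the 16 probe sets for these genes, each gene was read from the 1 whose mean was the highest across the 12 arrays. No measured difference between groups was used in this choice of probe set, but the 9 genes were chosen with earlier results of these data known. Total liver RNA was hybridized to Affymetrix mouse gene expression arrays, which read each transcript near its 3′ end, and the deposited values are log2 expression levels.

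The animals were Balb/c males, 8 weeks old, and had their injections for 6 weeks. A lentivirus entered by the tail vein at week 2 in every group, so that the controls carried virus too, and 4 weeks of injections followed it. The shLFAR1+CCl4 mice were given 5% CCl4 in olive oil at 0.3 ml/kg into the peritoneum, 3 times per week, and the knockdown virus Lenti-shLFAR1, which encodes a hairpin RNA directed at lnc-LFAR1. The NC+CCl4 mice were given the same CCl4 injections and the control virus (Lenti-NC). The shLFAR1 mice were given oil and Lenti-shLFAR1, and the NC mice oil and Lenti-NC. Each group had 3 arrays, which the labels call biological replicates. A virus injected into a vein is not limited to 1 liver cell type, and lnc-LFAR1 itself was not analysed here because no probe set carries its name.

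T cells recognise antigen through the T cell receptor, which reaches the cell surface and signals only with the CD3 chains, and CD4 or CD8 binds the MHC molecule beside it. B cells recognise antigen through a membrane immunoglobulin that signals through Cd79a and Cd79b. CD45, the tyrosine phosphatase encoded by Ptprc, sits on all nucleated blood cells, lymphocytes and macrophages alike, and sets the threshold of receptor signalling in T and B cells. Livers hold resident T cells, natural killer cells, B cells and many macrophages known as Kupffer cells.

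The starts of 3 of these genes are shown because they carry the contrast described below: Ptprc changed most, Cd3g changed a little, and Cd3d, which lies beside Cd3g, was not called. Each run is 300 bases from RefSeq on GRCm38.p6, with 250 bases before the start and 50 after it, 5′ to 3′ on the strand of the gene. Capitals mark AGGAAGT, a core letter string of ETS family factors, and CAGGTG, an E-box, on either strand.
Ptprc, chr1:138175256-138175555, minus strand: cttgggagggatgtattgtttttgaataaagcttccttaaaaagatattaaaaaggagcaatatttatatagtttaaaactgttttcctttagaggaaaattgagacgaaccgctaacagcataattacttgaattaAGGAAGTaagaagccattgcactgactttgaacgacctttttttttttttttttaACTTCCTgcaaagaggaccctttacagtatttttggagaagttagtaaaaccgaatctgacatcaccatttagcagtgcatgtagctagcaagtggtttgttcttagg
Cd3g, chr9:44980382-44980681, minus strand: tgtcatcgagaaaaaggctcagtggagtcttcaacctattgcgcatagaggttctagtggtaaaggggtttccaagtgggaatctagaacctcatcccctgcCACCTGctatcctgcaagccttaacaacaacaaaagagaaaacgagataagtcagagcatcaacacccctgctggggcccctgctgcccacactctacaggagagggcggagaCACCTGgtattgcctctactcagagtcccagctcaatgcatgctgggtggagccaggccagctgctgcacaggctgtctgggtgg
Cd3d, chr9:44981536-44981835, plus strand: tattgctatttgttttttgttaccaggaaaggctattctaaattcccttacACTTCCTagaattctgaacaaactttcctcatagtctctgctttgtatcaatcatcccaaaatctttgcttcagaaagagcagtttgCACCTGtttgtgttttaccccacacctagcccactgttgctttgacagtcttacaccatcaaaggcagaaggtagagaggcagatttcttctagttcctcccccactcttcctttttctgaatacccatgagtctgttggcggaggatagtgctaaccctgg
The starts of Cd3g and Cd3d lie 1355 bases apart on chromosome 9 and the genes run away from each other, with Cd3e next to them in gene order. A window was found for 6 of the 9 genes, 7 windows in all, since Ptprc has 2. AGGAAGT occurred in 5 of these 7 windows, those of Ptprc (both), Cd79a, Cd3d and Cd3e, and in 9.35% of 32851 windows over all genes. CAGGTG occurred in 4, those of Cd79a, Cd3g, Cd3d and Cd3e, and in 20.2% of all windows. TATAAA was found in 1 window, of Ptprc, against 13.6% of all windows, and the Ikaros string TGGGAAT in 1, of Cd3g, against 4.66%. TGTGGTT, a RUNX string, was in none of the 7 and in 5.27% of all windows, and ATTTGCAT, the octamer, in none of the 7 and in 1.74% of all windows. Both strands were searched, the 2 windows of Ptprc overlap and share bases, and a match describes letters only.

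Genes that define hepatocytes were high on all arrays, as the liver label has it. Alb, the plasma albumin, lay between 14.26 and 14.47 log2 units on all arrays, and Hnf4a, a hepatocyte transcription factor, between 11.09 and 11.79. The third shLFAR1+CCl4 array stood apart from its group. On the first principal component, which held 56.3% of the variance, it lay at 39.2, against -6.80 and -9.66 for the other two arrays of that group, while the NC+CCl4 arrays lay at 43.0, 34.8 and 48.8 and the oil arrays between -26.7 and -20.4. The first NC+CCl4 array had a Gapdh signal 0.716 log2 units higher from the 3′ than from the 5′ probe set, against -0.205 to 0.033 on the other arrays, a measure of RNA integrity.

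Most of the lymphocyte genes lay low on these arrays. The values carry no detection call, so their level was set beside that of 70 olfactory and vomeronasal receptor genes, which serve in sensory neurons and were chosen as a scale after the values had been seen. The means of these 70 genes had a median of 3.22 log2 units and ran to 4.94 at their 95th percentile. Cd3g, Cd3d, Cd8a, Ms4a1, Cd79a and Cd79b, 6 of the 9, lay within that range, with means between 3.38 for Cd3g and 4.73 for Cd8a. Cd3e at 6.05, Cd4 at 5.61 and Ptprc at 6.64 lay above it. The same 6 genes were below the median of all genes, 5.59, in every group. Levels of different probe sets do not compare genes with one another. At such low levels a fold change can be understated, which was not tested here. In whole liver, fewer cells of a type and less RNA per cell cannot be told apart.

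**Figure D1:**
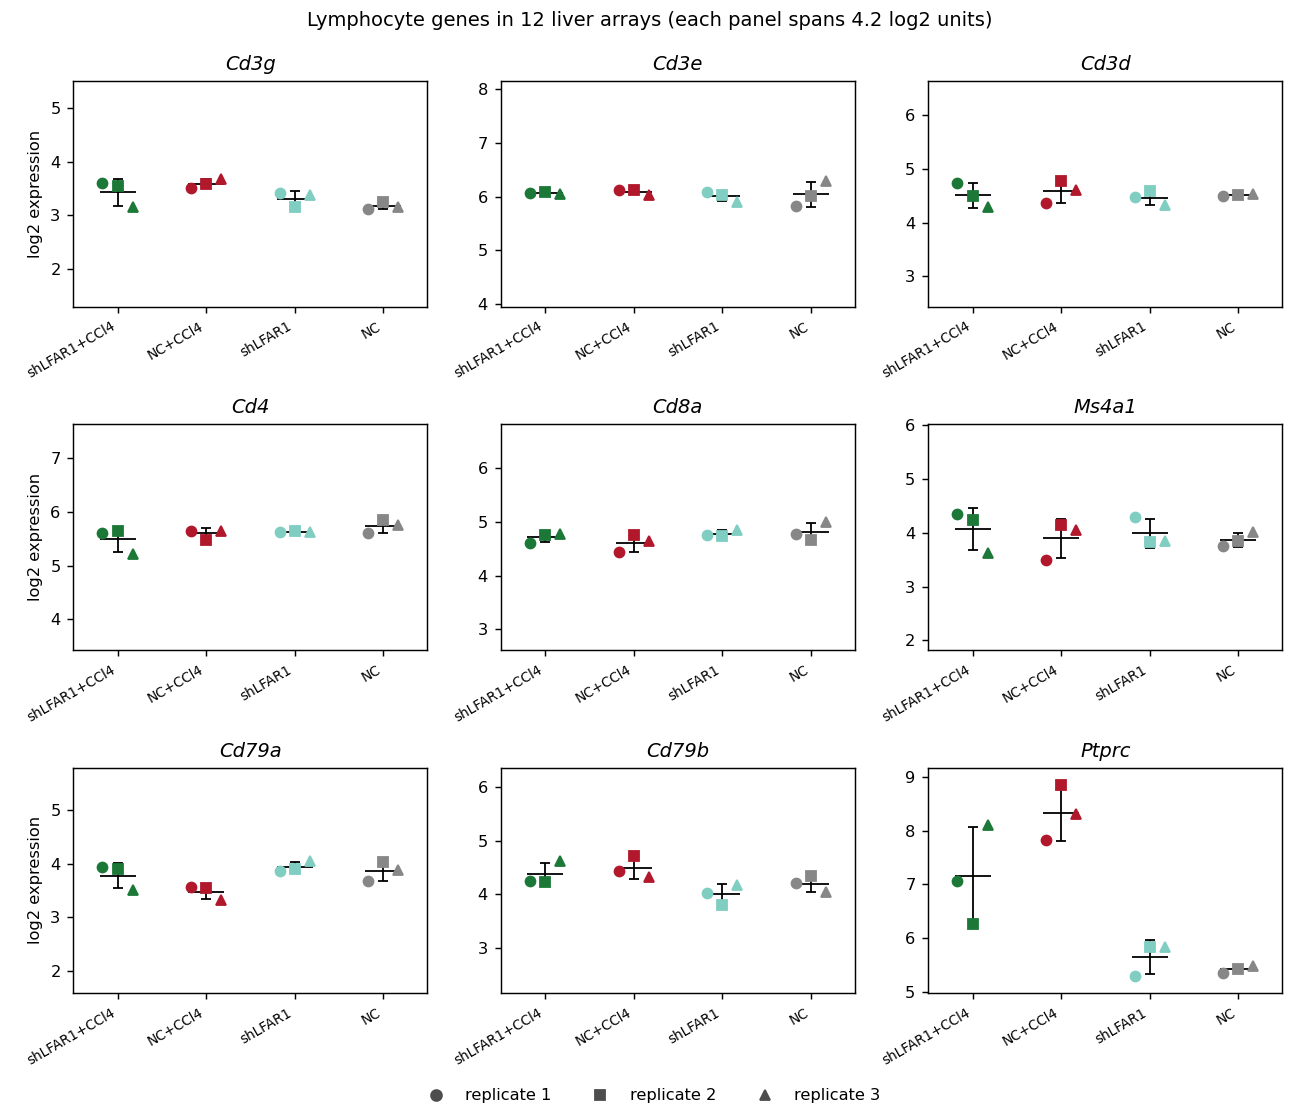
Log2 expression of the 9 lymphocyte genes on each of the 12 arrays, by group, with the mean and SD in black and the replicate shown by the marker. Each panel spans 4.2 log2 units, so that the slopes compare: Ptprc runs between 5.29 and 8.86, whereas no other gene covers more than 0.90 units.

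CCl4 treatment under the control virus (NC+CCl4 against NC) raised the leucocyte gene Ptprc about 7.54-fold and left the receptor genes of T and B cells near their oil levels. Of the 9 genes, 2 rose past an adjusted p of 0.05, Ptprc and Cd3g, and none fell, beside 13.1% of all 18193 genes called in either direction (7.66% higher, 5.41% lower). Without Ptprc the count was 1 of 8, which is near the share over all genes. The arrays of the groups did not overlap for 3 of the 9 genes, Ptprc, Cd3g and Cd79a, beside 29.6% of all genes, and the same 3 had an unadjusted p under 0.05, beside 27.1%. By the threshold of the study's methods (fold above 1.6 and unadjusted p under 0.05, gene by gene) only Ptprc of the 9 was called, beside 6.94% of all genes. The median change of the 9 genes was 0.05 log2 units, and that of all genes -0.05. The test was limma's moderated test on 3 arrays against 3, within a model of all 12 arrays, with Benjamini-Hochberg adjustment over all genes.

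Ptprc was at 7.82, 8.86 and 8.32 log2 units in NC+CCl4 livers, against 5.36, 5.42 and 5.48 in NC livers. The groups were more than 2 units apart at their nearest arrays. The change was 2.91 ± 0.37 (SE; 95% interval 2.11 to 3.72), or 7.54-fold, with an adjusted p of 0.000803. A second probe set of the gene, at a mean of only 2.64, changed by 0.29 ± 0.13 with an adjusted p of 0.174 over all probe sets. With the mean of both probe sets as the value of the gene, the change was 1.6 ± 0.22, or 3.04-fold (adjusted p = 0.00199).

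Among the CD3 chains, Cd3g, the gamma chain, was at 3.51, 3.58 and 3.68 log2 units in NC+CCl4 livers and at 3.12, 3.24 and 3.16 in NC livers. All CCl4 arrays lay above all oil arrays, by a change of 0.42 ± 0.12 or 1.34-fold (adjusted p = 0.0413). The call did not hold in several other fits: the adjusted p was 0.0608 with a replicate block and 0.0656 after median centring of each array, and it was between 0.0122 and 0.129 with each array left out in turn, above 0.05 without any 1 of the NC or NC+CCl4 arrays or of the first and the third shLFAR1 arrays. Cd3e, the epsilon chain, was at 6.12, 6.13 and 6.03 in NC+CCl4 livers and at 5.82, 6.01 and 6.28 in NC livers, so that the NC arrays enclosed those of NC+CCl4. Its change was 0.05 ± 0.12 (95% interval -0.22 to 0.32, adjusted p = 0.821). Cd3d, the delta chain, was at 4.36, 4.78 and 4.60 in NC+CCl4 livers and at 4.50, 4.51 and 4.53 in NC livers, a change of 0.06 ± 0.14 (adjusted p = 0.816). The change of Cd3g exceeded that of Cd3d by 0.35 and that of Cd3e by 0.36, and the array differences did not overlap between the groups, although the chains join 1 complex; these pairs were chosen after the values had been seen.

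The coreceptor genes were slightly lower on average in CCl4 livers, without passing the test. Cd4, the coreceptor of helper T cells, was at 5.65, 5.48 and 5.65 in NC+CCl4 livers and at 5.60, 5.84 and 5.76 in NC livers, a change of -0.14 ± 0.13 (adjusted p = 0.545). Cd8a, the alpha chain of the coreceptor of cytotoxic T cells, was at 4.43, 4.76 and 4.65 in NC+CCl4 livers and at 4.77, 4.66 and 5.00 in NC livers, a change of -0.20 ± 0.12 (adjusted p = 0.343). The groups overlapped for both genes. The probe set of Cd8a is of a type (_x_at) whose probes can also bind other transcripts, and its sign depended on the probe set taken: the change was 0.14 for the probe set with the largest interquartile range.

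The B cell genes did not move as a block. Ms4a1, the B cell surface protein CD20, was at 3.49, 4.15 and 4.06 log2 units in NC+CCl4 livers and at 3.76, 3.84 and 4.01 in NC livers, a change of 0.03 ± 0.21 (adjusted p = 0.943). Cd79a, one signalling chain of the B cell receptor, was at 3.57, 3.55 and 3.33 in NC+CCl4 livers and at 3.68, 4.04 and 3.88 in NC livers. Every CCl4 array lay below every oil array, but the change of -0.38 ± 0.14 missed the threshold (adjusted p = 0.0887). Cd79b, the other chain, was at 4.44, 4.71 and 4.33 in NC+CCl4 livers and at 4.22, 4.34 and 4.05 in NC livers, with a positive change of 0.29 ± 0.15 (adjusted p = 0.231). The 2 chains pair in 1 receptor, and the change of Cd79b exceeded that of Cd79a by 0.67, and the array differences did not overlap between the groups. This was not particular to CCl4. The differences did not overlap either in shLFAR1 against NC, both given oil (-0.28), or in shLFAR1+CCl4 against shLFAR1 (0.52). In shLFAR1+CCl4 against NC+CCl4 they overlapped (-0.43). How often other gene pairs do the same was not counted. Leaving out the third shLFAR1+CCl4 array, which changes only the pooled spread here, brought Cd79a past the threshold at the same change of -0.38 (adjusted p = 0.0449).

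For the 8 genes other than Ptprc, the 95% intervals ran between -0.68 and 0.68 log2 units, so a change beyond 1.61-fold in either direction lay outside the interval of each of them on this scale. The 7 other probe sets of the 9 genes, all with means between 2.32 and 3.65, changed by -0.07 to 0.29, and none was called by limma over 34945 probe sets (1 at an unadjusted p under 0.05).

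**Figure D2:**
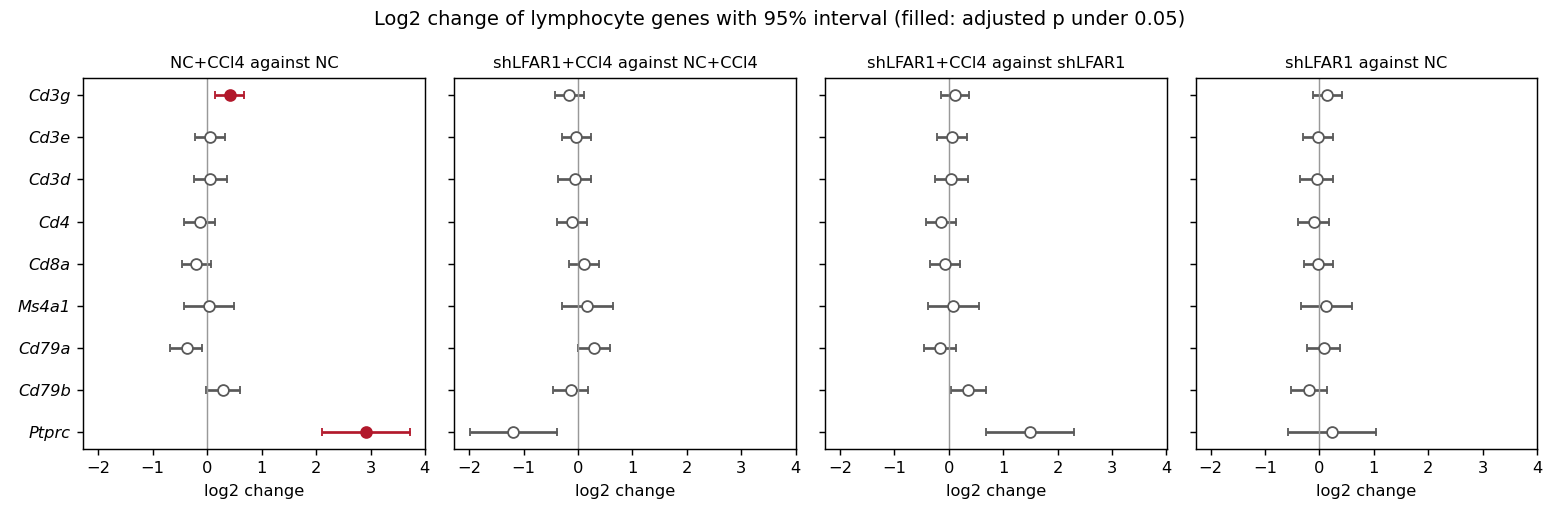
Log2 change of each lymphocyte gene in 4 comparisons, with the 95% interval of the model over 12 arrays; filled points passed an adjusted p of 0.05. Ptprc at 2.91 and Cd3g at 0.42 in NC+CCl4 against NC are the filled points, and the 8 genes other than Ptprc lie within 0.42 units of 0 in all 4 comparisons.

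Longer lists of genes for each cell type were counted in NC+CCl4 against NC, beside 7.66% of all genes called higher and 5.41% called lower. Of 20 further genes shared by most leucocytes, 13 rose and none fell, with a median change of 1.36. Laptm5, a lysosomal protein of blood cells, rose 9.18-fold (3.20 ± 0.50, adjusted p = 0.00226), and Cd48, a surface ligand of lymphocytes and other leucocytes, rose 5.52-fold (2.46 ± 0.32, adjusted p = 0.000803). Of 19 macrophage and Kupffer cell genes, 11 rose and 1 fell, with a median of 1.33, and Lyz2, the lysozyme of macrophages and neutrophils, rose 15.3-fold (3.94 ± 0.49, adjusted p = 0.000742). The mean of the macrophage list relative to NC was 1.07 to 1.81 log2 units in NC+CCl4 livers and -0.14 to 0.18 in NC livers, and its part in the change of Ptprc was not tested.

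Of 15 T cell receptor and signalling genes measured, 1 rose and none fell (median -0.07). It was Lcp2, an adaptor of the T cell receptor that myeloid cells and platelets also use, which rose 1.72-fold (0.78 ± 0.22, adjusted p = 0.0328). Of 24 T cell surface and subset genes, 1 rose and none fell (median -0.08), and it was Ets1, a transcription factor of lymphocytes and of endothelium (1.59-fold, 0.67 ± 0.14, adjusted p = 0.00756). The mean of the surface and subset list lay between -0.05 and 0.06 units of the NC mean in NC+CCl4 livers and between -0.10 and 0.11 in NC livers. Of 19 natural killer and cytotoxic genes, 2 rose and none fell (median -0.02), Nkg7, a cytotoxic granule protein, 1.68-fold (adjusted p = 0.0179) and Ccl5, a chemokine of activated T and natural killer cells, 2.84-fold (adjusted p = 0.0312). Against 7.66% of all genes called higher, the counts of these 3 lists stood at or near the background.

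Of 24 genes of the B cell receptor and B cell identity, 5 rose and none fell (median 0.16), a larger share than the 7.66% over all genes. The mean of the list relative to NC was 0.35 to 0.62 log2 units in NC+CCl4 livers and -0.04 to 0.06 in NC livers, without overlap. Those 5 were Ly86, Cd24a, Cd72, Cd22 and Blnk. Ly86, a secreted partner of a Toll-like receptor relative on B cells and macrophages, was at 8.04, 9.22 and 8.34 in NC+CCl4 livers and at 5.95, 5.60 and 6.09 in NC livers, 6.30-fold higher (adjusted p = 0.00199). Cd24a, a surface protein of young B cells and also of bile duct epithelium, rose 3.84-fold (adjusted p = 0.00511). Cd72 and Cd22, inhibitory receptors of B cells, rose 2.71-fold (adjusted p = 0.00965) and 1.75-fold (adjusted p = 0.0135). Of 13 immunoglobulin and plasma cell genes, 3 rose and none fell (median 0.10), also beside the 7.66% of all genes. They were Igha, the heavy chain of immunoglobulin A (1.76-fold, adjusted p = 0.047), Prdm1, a regulator of plasma cells and of other lymphocytes (1.57-fold, adjusted p = 0.0108), and Sdc1, a proteoglycan of plasma cells that hepatocytes also make (1.83-fold, adjusted p = 0.0231).

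Of 23 genes of lymphocyte homing and lymphoid tissue, 7 rose and none fell (median 0.30), beside 7.66% of all genes called higher. Ltb, the lymphotoxin beta that shapes lymphoid tissue, was at 5.62, 5.62 and 5.76 log2 units in NC+CCl4 livers and at 4.55, 4.60 and 4.70 in NC livers, 2.07-fold higher (adjusted p = 0.000692). The 7 also held Cxcl9 (2.23-fold, adjusted p = 0.0385) and Cxcl10 (2.13-fold, adjusted p = 0.0324), chemokines that draw T cells, together with Cxcl16, Icam1, Itga4 and Itgal. For the chemokines 1 array led: Cxcl10 was at 4.66, 6.08 and 4.59 in NC+CCl4 livers and at 4.01, 3.84 and 4.21 in NC livers. Of 14 dendritic cell genes 3 rose (median 0.09), and of 10 neutrophil genes 3 rose (median 0.20), with none lower in either list, against the same 7.66%. None of the 70 olfactory and vomeronasal receptors was called, with 8 at an unadjusted p under 0.05. Of genes of other liver cells, 9 of 12 for stellate cells and myofibroblasts rose, 12 of 14 for proliferation rose, 1 of 10 for sinusoidal endothelium rose, beside 7.66% of all genes called higher, and 2 of 15 for hepatocytes fell, beside 5.41% called lower.

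Some of these counts moved when 1 array was left out. The share of all genes called in NC+CCl4 against NC was not counted for these fits. A shift of a list therefore cannot be told apart from a general shift in the number of calls. Without the first NC+CCl4 array, 1 of 13 immunoglobulin and plasma cell genes was called (Prdm1, while Igha and Sdc1 were not), 1 of 19 natural killer genes (Nkg7, while Ccl5 was not) and 1 of 15 hepatocyte genes, and the counts were 6 for the B cell list, 6 for homing, 12 for pan-leucocyte genes, 7 for stellate cells and 9 for proliferation. Without the third shLFAR1+CCl4 array, which enters only through the pooled spread here, they were 2 for the T cell surface list (Ets1 and Il7r), 7 for the B cell list, 4 for immunoglobulins, 9 for homing, 4 for dendritic cells, 10 for stellate cells and 13 for proliferation. Of the hepatocyte genes 2 were then called higher, Alb and Ttr, and 2 lower, and of the olfactory and vomeronasal receptors 2 were called lower.

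**Figure D3:**
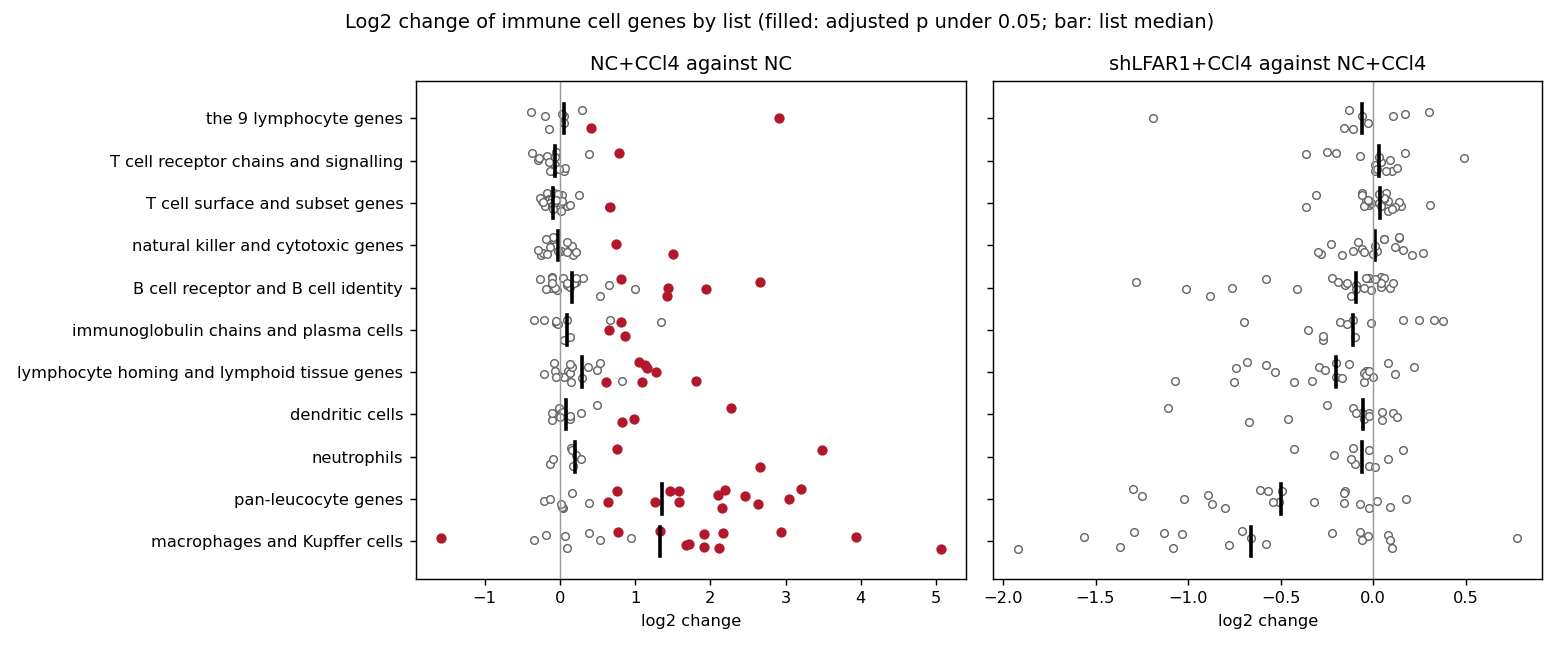
Log2 change of the genes of 11 immune cell lists in NC+CCl4 against NC and in shLFAR1+CCl4 against NC+CCl4; filled points passed an adjusted p of 0.05 and black bars are list medians. In NC+CCl4 against NC the T cell and natural killer lists sit around 0 with medians of -0.08 to -0.02, while the pan-leucocyte and macrophage lists have medians of 1.36 and 1.33; no point in shLFAR1+CCl4 against NC+CCl4 is filled.

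With CCl4 in both groups, the knockdown virus gave a lower mean of Ptprc and no clear difference in the T and B cell genes (shLFAR1+CCl4 against NC+CCl4). By limma none of the 9 genes was called, beside 0.291% of all genes, and 2 had an unadjusted p under 0.05, Ptprc and Cd79a, beside 14.2% of all genes. No gene of the 9 had arrays that did not overlap, beside 12.3% of all genes.

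Ptprc was at 7.06, 6.27 and 8.11 log2 units in shLFAR1+CCl4 livers, against 7.82, 8.86 and 8.32 in NC+CCl4 livers. The third shLFAR1+CCl4 array lay inside the range of NC+CCl4 and the other two lay below it. The change was -1.19 ± 0.37 (95% interval -1.99 to -0.38), a 2.27-fold lower mean with an adjusted p of 0.171. Without the third array the change was -1.67 ± 0.29, 3.17-fold lower, and passed the threshold (adjusted p = 0.00448). Without the second shLFAR1+CCl4 array it was -0.75 ± 0.32, 1.68-fold lower (adjusted p = 0.490), and without the second NC+CCl4 array -0.92 ± 0.40, 1.89-fold lower (adjusted p = 0.267). With the mean of both probe sets it was -0.60 ± 0.22, 1.51-fold lower (adjusted p = 0.262). The call thus rests on whether 1 array is kept, and the same holds for the macrophage list, of which none of 19 genes was called with it (11 at an unadjusted p under 0.05) and 10 fell and 1 rose without it.

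The receptor genes of both lineages differed little between the CCl4 groups. Cd3g was at 3.61, 3.54 and 3.15 in shLFAR1+CCl4 livers (change -0.16 ± 0.12, adjusted p = 0.632, against the NC+CCl4 values above), Cd3e at 6.07, 6.08 and 6.04 (-0.03 ± 0.12, adjusted p = 0.953) and Cd3d at 4.74, 4.50 and 4.29 (-0.06 ± 0.14, adjusted p = 0.899). Cd4 was at 5.60, 5.64 and 5.22 (-0.11 ± 0.13, adjusted p = 0.786) and Cd8a at 4.61, 4.76 and 4.78 (0.11 ± 0.12, adjusted p = 0.780). For each of these 5 T cell genes the shLFAR1+CCl4 arrays overlapped those of NC+CCl4.

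Of the B cell genes, Cd79a was at 3.94, 3.90 and 3.51 in shLFAR1+CCl4 livers, against 3.57, 3.55 and 3.33 in NC+CCl4 livers. The first and second array lay above all of NC+CCl4 and the third among them, for a change of 0.30 ± 0.14 (adjusted p = 0.346). Ms4a1 was at 4.35, 4.24 and 3.63 (0.17 ± 0.21, adjusted p = 0.798) and Cd79b at 4.25, 4.23 and 4.62 (-0.13 ± 0.15, adjusted p = 0.778). The intervals of the 8 genes without Ptprc ran between -0.45 and 0.64, so the data allow differences of up to 1.56-fold up and 1.37-fold down.

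By limma none of the longer lists held a called gene in shLFAR1+CCl4 against NC+CCl4. At an unadjusted p under 0.05 there were 2 of 15 T cell receptor genes, 1 of 24 T cell surface genes, 1 of 19 natural killer genes, 5 of 24 B cell genes, 2 of 13 immunoglobulin genes, 8 of 23 homing genes and 3 of 20 pan-leucocyte genes, beside the 14.2% of all genes. Without the third shLFAR1+CCl4 array, 7.29% of all genes were called, and 5 of 24 B cell genes fell (Blnk, Cd22, Cd24a, Cd72 and Ly86, which are those that rose in NC+CCl4 against NC, a comparison that shares the NC+CCl4 arrays), 5 of 20 pan-leucocyte genes fell and 3 of 23 homing genes fell. None of 15 T cell receptor genes, 24 T cell surface genes or 19 natural killer genes was called without it either, with 1, 3 and 2 at an unadjusted p under 0.05. Of the immunoglobulin and plasma cell genes, Xbp1, a transcription factor of secretory cells that hepatocytes also use, rose without it.

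Within the shLFAR1+CCl4 group, the third array took opposite places for Ptprc and for most lymphocyte genes, while the order of the other arrays varied. The third array, highest of the group for Ptprc, was the lowest for 6 of the other 8 genes, Cd3g, Cd3e, Cd3d, Cd4, Ms4a1 and Cd79a, and the highest for Cd8a and Cd79b. Over all genes that array was the lowest of its group for 43.8% and the highest for 32.6%. For Cd3e the 3 arrays lay within 0.04 units, so its order carries little. The pattern was noticed in the values and has no test, since replicates of a group share no label that sets 1 apart.

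Over the longer lists the place of the third array differed between lists and did not follow lineage. Relative to NC, the shLFAR1+CCl4 arrays, by replicate number, had list means of 0.52, 0.45 and 1.42 log2 units for pan-leucocyte genes and of 0.54, 0.41 and 1.28 for macrophage genes. The B cell list was likewise highest on the third array, at 0.07, 0.17 and 0.40. The immunoglobulin and plasma cell list was lowest there, at 0.47, 0.27 and -0.06, as was the natural killer list, at 0.23, 0.07 and -0.06. Both T cell lists were also lowest on it, at 0.02, -0.01 and -0.03 for receptor and signalling genes and at 0.04, 0.05 and -0.06 for surface and subset genes, so that their arrays differed little. The homing list was at 0.23, 0.16 and 0.24.

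Single genes, picked after their values were seen, show the spread behind these means in the shLFAR1+CCl4 group. Lyz2 was at 9.28, 9.71 and 11.72 and Laptm5 at 6.84, 6.61 and 9.14 log2 units. Of the B cell list, Ly86 was at 6.57, 6.80 and 8.40, Cd24a at 5.22, 5.03 and 6.73, Cd72 at 4.65, 4.79 and 6.04 and Cd22 at 5.28, 5.31 and 5.86, each highest on the third array. Of the T cell lists, Lcp2 was at 5.09, 4.84 and 5.44 and Ets1 at 7.55, 7.60 and 7.75, also highest there. Ighm, the heavy chain of immunoglobulin M, was at 8.19, 8.44 and 6.84, and the third array lay below all 3 NC arrays (7.13, 7.41 and 7.25). Jchain, which joins secreted immunoglobulins, was at 7.19, 5.57 and 4.22 in shLFAR1+CCl4 livers, at 4.92, 5.96 and 6.64 in NC+CCl4 livers and at 4.46, 4.59 and 4.4 in NC livers. Ccl5 was at 7.37, 5.60 and 5.22 in shLFAR1+CCl4 livers, at 6.33, 6.02 and 6.67 in NC+CCl4 livers and at 4.62, 4.77 and 5.12 in NC livers. Jchain in shLFAR1+CCl4 against NC+CCl4 changed by -0.18 ± 0.58 (adjusted p = 0.937), so its spread within the groups was wider than the difference between them.

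**Figure D4:**
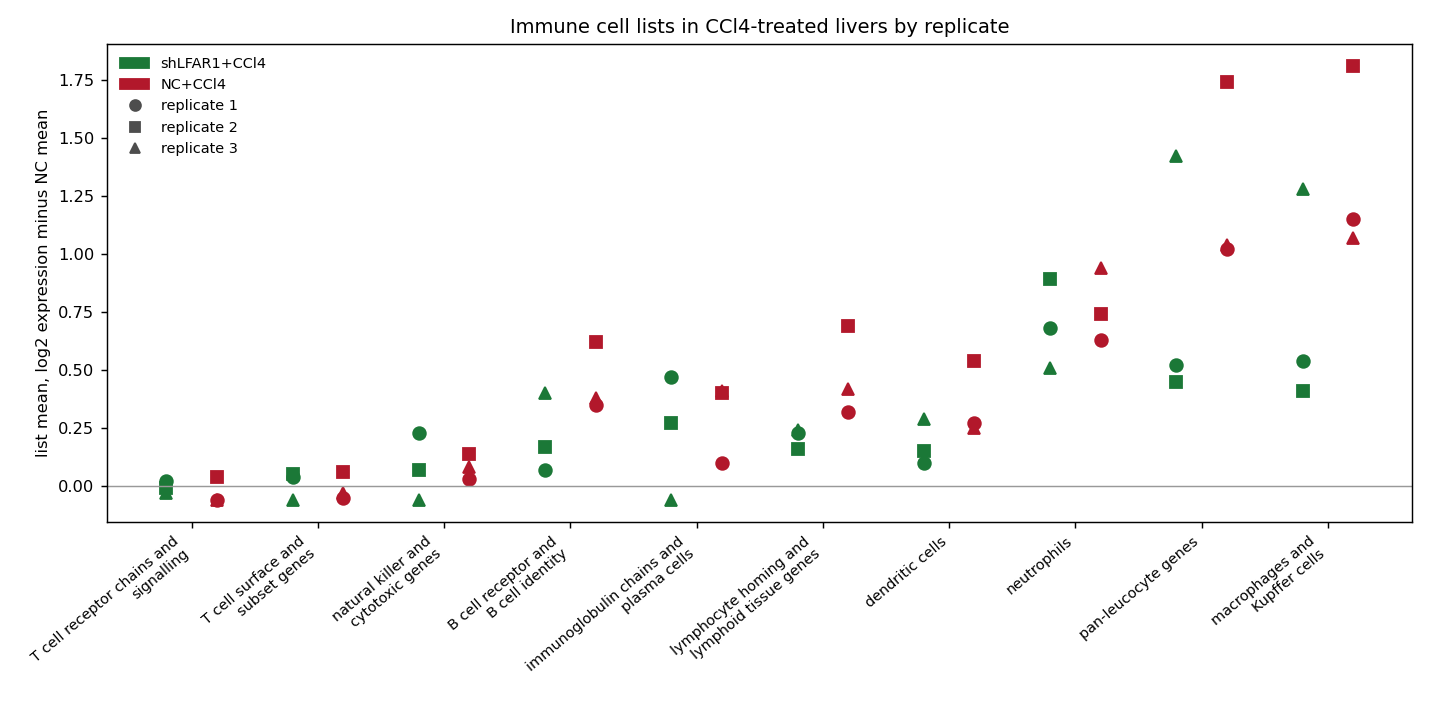
Mean log2 expression minus the NC mean for 10 immune cell lists on the 6 arrays of CCl4-treated livers, with shLFAR1+CCl4 in green left of NC+CCl4 in red and the replicate shown by the marker. The third shLFAR1+CCl4 array (green triangle) is the highest of its group for the B cell, homing, dendritic, pan-leucocyte and macrophage lists and the lowest for the T cell, natural killer, immunoglobulin and neutrophil lists.

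Under the knockdown virus, CCl4 gave a higher mean of Ptprc than oil, without a call (shLFAR1+CCl4 against shLFAR1). Ptprc was at 7.06, 6.27 and 8.11 in shLFAR1+CCl4 livers and at 5.29, 5.83 and 5.83 in shLFAR1 livers, a change of 1.5 ± 0.37 or 2.82-fold (adjusted p = 0.131). All CCl4 arrays lay above all oil arrays. Without the second shLFAR1+CCl4 array the change was 1.93 ± 0.32 and passed the threshold (adjusted p = 0.0268), and without the third it was 1.02 ± 0.29 (adjusted p = 0.260). Cd79b, at 4.25, 4.23 and 4.62 in shLFAR1+CCl4 livers and at 4.03, 3.81 and 4.17 in shLFAR1 livers, did not overlap either (0.36 ± 0.15, adjusted p = 0.4). By limma none of the 9 genes was called, beside 0.407% of all genes, and these 2 had an unadjusted p under 0.05, beside 10.8% of all genes. For 2 of 9 genes the arrays did not overlap, beside 20.1% of all genes. Cd3g, which was called under the control virus, changed by 0.12 ± 0.12 here (adjusted p = 0.802).

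The difference between both CCl4 responses was tested as an interaction, the response under the knockdown virus minus that under the control virus. It was -1.42 ± 0.53 for Ptprc (unadjusted p = 0.0193, adjusted p = 0.421), and between -0.30 and 0.22 for the other 8 genes. None of the 9 genes was called by limma, beside 0.022% of all genes, and 1 had an unadjusted p under 0.05, beside 9.51% of all genes. Without the third shLFAR1+CCl4 array the value for Ptprc was -1.90 ± 0.39 (adjusted p = 0.0212), and without the second it was -0.98 ± 0.44 (unadjusted p = 0.0447, adjusted p = 0.704).

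In oil-treated livers no lymphocyte gene was called between the 2 viruses (shLFAR1 against NC). Changes of the 9 genes lay between -0.20 for Cd79b and 0.23 for Ptprc, and none was called by limma or had an unadjusted p under 0.05, beside 0.0% of all genes called and 2.77% with an unadjusted p under 0.05. The intervals of the 8 genes without Ptprc ran between -0.52 and 0.59. The remaining shLFAR1 values were 3.41, 3.15 and 3.38 for Cd3g, 6.09, 6.03 and 5.90 for Cd3e, 4.48, 4.58 and 4.33 for Cd3d, 5.62, 5.64 and 5.63 for Cd4, 4.76, 4.74 and 4.85 for Cd8a, 4.30, 3.83 and 3.85 for Ms4a1, and 3.86, 3.91 and 4.05 for Cd79a. For all 9 genes the shLFAR1 arrays overlapped the NC arrays, while 10.8% of all genes did not overlap.

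Over the 4 groups, the mean of Ptprc was 7.15 ± 0.92 log2 units in shLFAR1+CCl4, 8.33 ± 0.52 in NC+CCl4, 5.65 ± 0.31 in shLFAR1 and 5.42 ± 0.06 in NC (SD, n = 3 each). NC+CCl4 was thus the highest and NC the lowest, and the neighbours in this order that overlapped were the 2 CCl4 groups and the 2 oil groups. The genes most like Ptprc over the 12 arrays, among 9091 genes ranked, were Ctss (Pearson's r = 0.987), C1qc (0.986), Olfml3 (0.983), Clec7a (0.982) and Rab8b (0.982), of which Ctss is a lysosomal protease of macrophages and other antigen-presenting cells and C1qc a complement chain made by macrophages. With the group means taken out, r was still 0.932 for Ctss and 0.934 for C1qc. For the mean of Cd3g, Cd3e and Cd3d they were Aoc1 (0.910), Emcn (0.852), Nkg7 (0.835), Ighm (0.833) and Igkv8-30 (0.832), of which Nkg7 is expressed by cytotoxic lymphocytes and Ighm and Igkv8-30 encode immunoglobulin chains. For the mean of Ms4a1, Cd79a and Cd79b they were Gm10505 (0.841), Sv2b (0.836), Gm4951 (0.831), Chgb (0.815) and Trim60 (0.804), with no immunoglobulin gene among them. These correlations describe 12 arrays that share treatments and the third shLFAR1+CCl4 array, and no p is given for them.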

How the data were processed

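The authors deposited log2 expression values of 45101 probe sets on 12 arrays; array means lay between 5.10 and 5.11 log2 units, and how the authors summarized and normalized the values is not given in the sources used here. The platform annotation gave 1 symbol to 34958 probe sets, several to 932 and none to 9211. With 64 control probe sets left out, 18193 genes remained, each read from the probe set with the highest mean. Groups came from the sample labels. The precision is limited by the number of arrays.

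The test was that of limma 3.58.1 under R 4.3.3 (lmFit on the 4 groups, eBayes with an intensity trend, 8 residual degrees of freedom), two-sided. Benjamini-Hochberg adjustment covered all 18193 genes, with calls at an adjusted p under 0.05. Python 3.11.15 made the other tables and the plots. The script was tested on simulated data. The median SD over genes was 0.143 in shLFAR1+CCl4, 0.172 in NC+CCl4, 0.106 in shLFAR1 and 0.131 in NC, and the model pools it. Same-numbered arrays of shLFAR1+CCl4 and NC+CCl4 deviated together (r = 0.126, 0.229 and 0.192), whereas arrays of different number had r between -0.234 and 0.0932. The block fit took the replicate number as a block over all 4 groups, not only these 2. The labels number the replicates but state no pairing. Elsewhere same-numbered arrays had r of -0.133 to 0.150 for NC+CCl4 and NC. For shLFAR1+CCl4 and shLFAR1 it was -0.0147 to 0.0871, and for shLFAR1 and NC -0.135 to 0.0412.

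All 9 lymphocyte genes were described. Apart from Alb and Hnf4a, genes named from the longer lists were called genes or are marked as picked after their values were seen. Values were given for some of the called genes with the smallest p, and for Cxcl9 and Cxcl10 outside that rule. The dendritic, neutrophil, stellate cell, endothelial and proliferation lists were counted without naming genes. The 9 genes and the lists were chosen with earlier results of these data known. Correlated genes were ranked among the genes whose SD over all arrays was above the median SD of all genes. Tried alternatives were the arrays fitted, the variance model, array weights, a filter on low values, normalization, the probe set, a replicate block, the methods' t-test (fold above 1.6, unadjusted p under 0.05), and each array left out.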

Additional observations from a re-analysis of the deposited data

How the results depend on the processing

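Ptprc in NC+CCl4 against NC kept its direction and its call under every alternative run. Its size did not hold: the mean of all probe sets gave 1.6 (3.04-fold) in place of 2.91 (7.54-fold). In that comparison 2 of the 9 genes were called as reported. With genes below the median left out, only 3 of the 9 were tested, Cd3g not among them, and 1 was called. The count of the 9 was 1 with median centring, with a replicate block, and with the methods' t-test at either threshold, and 1 to 3 with each array left out. Cd3g was the call that was lost: its change was 0.37 with median centring (adjusted p = 0.0656), and 0.42 both with the replicate block (adjusted p = 0.0608) and in the methods' t-test after Benjamini-Hochberg adjustment (adjusted p = 0.0797), and 8 of the 12 settings that left out 1 array lost it (0.37 to 0.46). Joint removal of the first NC+CCl4 and the third shLFAR1+CCl4 array, chosen after seeing the data, gave -0.43 for Cd79a (adjusted p = 0.0471).

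In shLFAR1+CCl4 against NC+CCl4 the count of 0 became 1, Ptprc, with array weights (-1.46, adjusted p = 0.0314) and without both arrays (-1.92, adjusted p = 0.00174), and was 0 to 1 with each array left out. In shLFAR1+CCl4 against shLFAR1 it was 1 with array weights (Ptprc 1.31, adjusted p = 0.0227) and 0 to 1 with each array left out. In shLFAR1 against NC it stayed 0. For the interaction it was 1 without both arrays (Ptprc -2.16, adjusted p = 0.00778) and 0 to 1 with each array left out. The replicate block changed no call but that of Cd3g.

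Signs turned only for changes that were not called, so those genes have no settled direction. In NC+CCl4 against NC these were Cd3e (-0.10 after quantile normalization), Cd8a (0.01 for the mean of its probe sets, 0.14 for the one with the largest interquartile range) and Ms4a1 (-0.01 with median centring). In shLFAR1+CCl4 against NC+CCl4 they were Cd3e (0.06, quantile), Cd3d (0.01, array weights), Cd4 (0.05 without both arrays) and Cd8a (-0.06 mean, -0.30 interquartile range, -0.02 without both arrays). In shLFAR1+CCl4 against shLFAR1 they were Cd3e (-0.00, quantile), Cd4 (0.01, interquartile range) and Cd8a (0.01, mean). In shLFAR1 against NC, array weights gave 0.04 for Cd3e and 0.03 for Cd8a. For the interaction, array weights gave -0.06 for Cd3e, 0.06 for Cd3d and 0.07 for Cd4. Quantile normalization gave 0.01 for Cd3d and 0.09 for Cd4, and median centring 0.01 and 0.02. For Cd4 the mean of probe sets gave 0.01, the interquartile rule 0.03 and removal of both arrays 0.16, while Cd8a was -0.16 by the interquartile rule and Cd79b -0.08 without both arrays.

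With each array left out, the changes whose sign turned ran as follows. In NC+CCl4 against NC, Cd3e ran between -0.05 and 0.18, Cd3d between -0.04 and 0.17 and Ms4a1 between -0.09 and 0.24. In shLFAR1+CCl4 against NC+CCl4, Cd3d ran between -0.18 and 0.05, Cd4 between -0.18 and 0.03 and Ms4a1 between -0.03 and 0.40. In shLFAR1+CCl4 against shLFAR1, Cd3d ran between -0.06 and 0.16 and Ms4a1 between -0.06 and 0.30. In shLFAR1 against NC, Cd3e ran between -0.14 and 0.09, Cd3d between -0.11 and 0.01, Cd8a between -0.10 and 0.07, Ms4a1 between -0.03 and 0.21 and Cd79a between -0.02 and 0.17. For the interaction, Cd3e ran between -0.12 and 0.11, Cd3d between -0.13 and 0.10, Cd4 between -0.08 and 0.13, Ms4a1 between -0.16 and 0.27 and Cd79b between -0.06 and 0.18.

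The limits are those of 3 arrays per group and of low signal. The files hold no detection calls, and 6 of the 9 genes had means within the range of the olfactory and vomeronasal receptors. Changes at such low levels can be understated, which was not tested here. The causes of the lost and gained calls were not tested.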
